A study of Homo sapiens with 17 samples.

Results

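The genes described here are 10 ligands, receptors and antagonists of the TGF-β superfamily, out of 26457 genes listed in the deposited mRNA-seq table of SW480 cells. They are the ligand genes INHBB, INHBA, TGFB1, TGFB2, BMP4 and BMP7, the receptor genes TGFBR1, TGFBR2 and TGFBR3, and the antagonist gene FST. The genes were matched by symbol, and the list itself was chosen by the measured values of the same 8 libraries that are described below, with INHBB as its leading gene. Each member's values are therefore a description: where a member is said below to be called, this only places it against the thresholds used for all genes, and no p is given for it.

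SW480 is a human colorectal adenocarcinoma cell line that expresses mutant p53 (mutp53). The cells were grown under puromycin (1.5 µg/ml) and carried a doxycycline-inducible short hairpin RNA, directed either against LacZ, as the control, or against p53. The hairpins were induced with doxycycline (1 µg/ml), and RNA was taken before TNF-α (0 h) or after 16 h with TNF-α at 12.5 ng/ml. This gave 4 groups (control 0 h, control 16 h, mutp53-depleted 0 h and mutp53-depleted 16 h) of 2 biological replicates, A and B. Each hairpin is carried by a line of its own, so that the hairpin and any other difference between the 2 lines cannot be told apart. The question behind the design is how mutp53 affects the transcriptional response to long exposure to TNF-α.

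The depth of the libraries differed. In control cells at 0 h, 12751404 reads (A) and 6108488 reads (B) lay on the listed genes, and at 16 h 9572568 and 6504713. In mutp53-depleted cells the corresponding numbers were 13809578 and 6749107 at 0 h, and 11038139 and 7498590 at 16 h. The deposited values are reads per gene scaled to the same total in each library, called normalized reads here, so that 1 read was worth between 0.67 and 1.515 normalized reads. The A library of each group was the deeper of its pair and its low values are the more precise.

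Ligands of the TGF-β superfamily are secreted as dimers, and activins, TGF-βs and bone morphogenetic proteins (BMPs) each bind a complex of type I and type II receptor kinases on the target cell. The receptors phosphorylate SMAD proteins, which then regulate transcription in the nucleus, while secreted antagonists hold ligands away from their receptors. In the colon, BMP signals favour differentiation of the epithelium and TGF-β restrains its growth, and lesions in this pathway are frequent in colorectal cancer.

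The changes that follow come from limma with Benjamini-Hochberg adjustment over 14800 tested genes and are on the scale of log2(normalized reads + 1), which understates the change of genes with few reads. A gene was called when its adjusted p was under 0.05 and its change at least 2-fold, and for the interaction, the TNF-α change in depleted cells less that in control cells, when its adjusted p was under 0.05. The test covered genes whose mean over the 8 libraries was 2.5 normalized reads or more. Of the 10 members, 9 were tested, and FST was not. The comparisons share libraries with one another: both depletion comparisons and both TNF-α comparisons are drawn from the same 4 groups.

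At 0 h, 2 of the 9 tested members were called between depleted and control cells, TGFB2 as higher and INHBB as lower. Over all tested genes 15.4% were called in this comparison, 5.89% as higher and 9.55% as lower. At 16 h, 4 members were called, and each of INHBB, BMP4, TGFBR1 and TGFBR3 was lower in depleted cells. The shares over all genes were 15.2% in either direction, 5.03% higher and 10.2% lower. With TNF-α in control cells, 1 member was called, INHBA, which was higher, beside 7.24% of all tested genes (2.97% higher and 4.27% lower). With TNF-α in depleted cells, 2 members were called, INHBA as higher and TGFBR3 as lower, beside 6.36% of all tested genes (1.86% higher and 4.5% lower). The interaction was called for 4 members, INHBB with a positive sign and TGFB2, BMP4 and TGFBR3 with a negative sign, and for 2.86% of all tested genes (0.655% positive and 2.21% negative). Because the members were selected on these values, nothing is read from the difference between their counts and these shares.

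**Figure D1:**
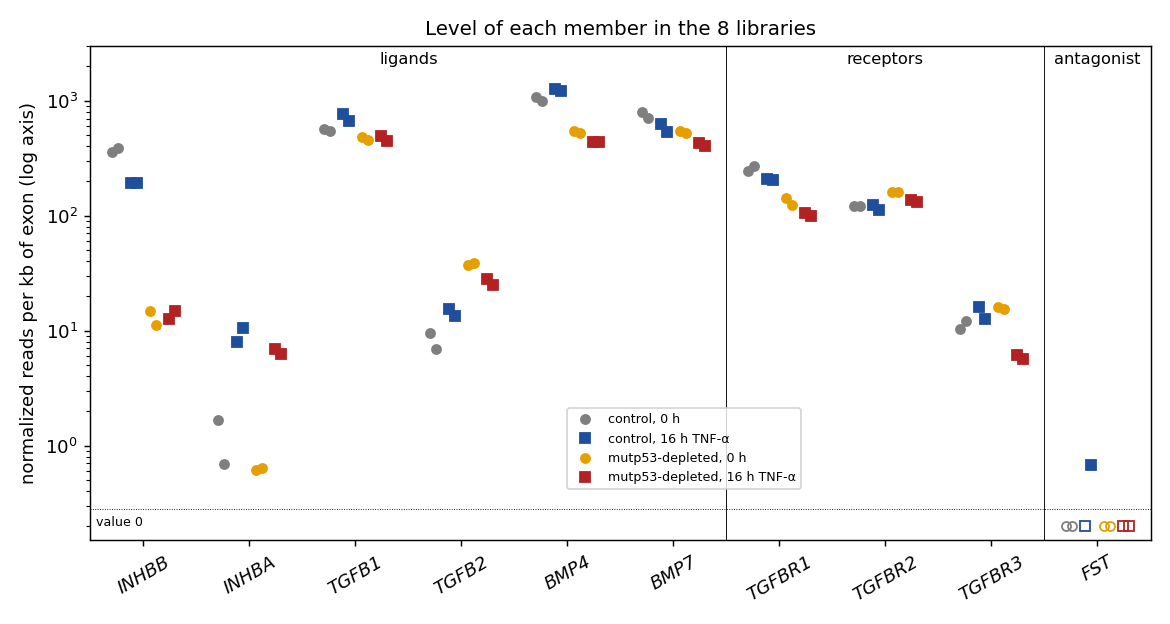
Normalized reads per kb of exon (log axis) of the 10 members in each of the 8 libraries; circles are 0 h, squares are 16 h with TNF-α, colours mark the 4 groups, and open symbols at the foot are values of 0. INHBB lies at 357 to 387 in the control 0 h libraries and at 11.1 to 14.7 in the 4 depleted libraries, while FST is at 0 in 7 of the 8 libraries.

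INHBB encodes the βB subunit of the activins and inhibins, which forms activin B as a dimer with itself. The gene (Entrez Gene 3625) lies on the plus strand of chromosome 2 at 121103719 to 121109383 in hg19, the build in the header of the table; the study's methods name hg38, and the positions are given as the table has them. Its promoter is shown because INHBB had the strongest depletion change of the members. In the RefSeq window of 250 bases before its start (GRCh38.p14, plus strand, chr2:120345886-120346135), with a match to the NF-κB consensus in capitals:
INHBB: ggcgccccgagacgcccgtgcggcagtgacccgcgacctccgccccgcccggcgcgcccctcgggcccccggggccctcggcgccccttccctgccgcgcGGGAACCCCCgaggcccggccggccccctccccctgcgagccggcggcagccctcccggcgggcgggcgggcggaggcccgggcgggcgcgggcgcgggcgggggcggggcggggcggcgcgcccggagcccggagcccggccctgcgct
The window is 89.6% G and C. The motifs searched, on both strands, were CAGAC (bound by SMADs), TGANTCA (bound by AP-1) and the consensus named NF-κB, of 10 letters. The single match in the INHBB window begins 150 bases before the start. Among 35116 RefSeq windows of the same length, 9.96% hold an NF-κB match, 38% hold CAGAC and 6.57% hold TGANTCA. A match describes the letters and not the binding of a factor.

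INHBB was abundant in control cells and low in mutp53-depleted cells at both times. In control cells it held 1143 (A) and 1239 (B) normalized reads at 0 h, and 614 and 612 at 16 h. In depleted cells it held 46.9 and 35.6 at 0 h, and 40.2 and 46.9 at 16 h. Each control library was thus far above each depleted library, and the 2 control groups did not overlap with each other, whereas the 2 depleted groups did. Those values rest on 2393 reads in the control 0 h libraries and 96 reads in the depleted 0 h libraries.

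With depletion, INHBB fell by 4.83 on the log2 scale at 0 h (SE 0.14, a 28.4-fold difference) and by 3.79 at 16 h (SE 0.14, 13.8-fold). Leaving out each library in turn moved the first value between -5.02 and -4.64 and the second between -3.90 and -3.68, and both calls were kept under every alternative that was run. The median change of the 50 tested genes nearest to INHBB on chromosome 2 was -0.05 at 0 h and 0.00 at 16 h. A median does not show whether single genes among them moved. The figure of the changes shows such medians for every tested member, and what sets them was not tested. Values said below to have the neighbouring genes' median removed come from a fit in which it was taken in each depleted library, over the gene itself and those 50, and can differ slightly from a plain subtraction.

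With TNF-α, INHBB had a log2 fold change of -0.96 ± 0.14 (SE) in control cells, just short of the 2-fold threshold; without the control 0 h library A the value was -1.01 and passed it. In depleted cells the log2 fold change was 0.08 ± 0.14. The difference between these changes, 1.04 ± 0.20, was called as an interaction with all 8 libraries, but without the control 0 h library B it was 0.98 and was not called. The range over the libraries left out in turn was 0.85 to 1.23.

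INHBA encodes the βA subunit, which forms activin A. The gene (Entrez Gene 3624) lies on the minus strand of chromosome 7 at 41728601 to 41742706 in hg19. Its promoter window is printed beside that of INHBB as the other activin subunit of the list; none of the motifs searched has a match in it, so it carries no capitals (RefSeq, GRCh38.p14, minus strand, chr7:41703091-41703340, 42.8% G and C):
INHBA: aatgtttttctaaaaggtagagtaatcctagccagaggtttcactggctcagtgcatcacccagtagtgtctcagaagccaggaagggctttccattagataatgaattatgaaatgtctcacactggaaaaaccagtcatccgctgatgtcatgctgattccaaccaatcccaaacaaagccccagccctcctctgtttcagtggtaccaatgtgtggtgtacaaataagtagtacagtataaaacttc
That no match was found says only that these letters are not in this window.

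INHBA was nearly silent before TNF-α. Control cells at 0 h held 3.63 (A) and 1.51 (B) normalized reads, and depleted cells 1.34 and 1.37. After 16 h with TNF-α control cells held 17.4 and 22.8, and depleted cells 15.1 and 13.6. Each 16 h library was above each 0 h library, in both lines. The number of reads was small: 6 in the control 0 h libraries together and 34 at 16 h, and 3 and 29 in the depleted libraries.

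With TNF-α, INHBA rose by 2.62 ± 0.53 (SE) on the log2 scale in control cells and by 2.70 ± 0.53 in depleted cells. From the reads themselves, the ratio was 6.65 in control cells, with an exact 95% interval of 2.76 to 19.4, and 10.7 in depleted cells, with an interval of 3.32 to 55. These intervals, and those of read ratios given further below, cover counting error only. Over the genes with enough reads to compare, replicates differed by more than counting error. The chi-square per gene was 2.07 to 3.93 in the 4 groups, so the intervals may be too narrow. The interaction value was 0.08 ± 0.74, and a difference between the lines was not detectable at this depth. Depleted cells held 3 reads against 6 in control cells at 0 h, 2.18 times fewer with an interval of 0.466 to 13.5. At 16 h they held 29 against 34, 1.35 times fewer with an interval of 0.799 to 2.3. Both intervals include no difference, and as INHBA was selected on these libraries they are a description and not a test. The 50 genes around INHBA had a median depletion change of -0.79 at 0 h and at 16 h, and in the fit with the neighbouring genes' median removed the depletion values of INHBA changed sign, to 0.23 and 0.38, still uncalled.

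TGFB2 encodes one of the TGF-β isoforms. It lies on the plus strand of chromosome 1 at 218518676 to 218617961 in hg19 (Entrez Gene 7042). Its promoter is shown because it was the member called as higher with depletion at 0 h. The RefSeq window (GRCh38.p14, plus strand, chr1:218345086-218345335, 50.4% G and C) holds the SMAD motif CAGAC, in capitals, beginning 243 and 53 bases before the start, both on the strand printed:
TGFB2: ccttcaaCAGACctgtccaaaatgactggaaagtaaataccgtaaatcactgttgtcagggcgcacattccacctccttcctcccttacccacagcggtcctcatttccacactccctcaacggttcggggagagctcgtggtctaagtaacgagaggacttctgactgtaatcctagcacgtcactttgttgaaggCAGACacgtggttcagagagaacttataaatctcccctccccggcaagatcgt
Over all members, 9 have a RefSeq window and BMP7 has none in the table used. Of the 19 windows of those 9 genes, 7 hold CAGAC (TGFB2, BMP4 and TGFBR1), where 38% of all RefSeq windows do. An NF-κB match lies in 6 (INHBB, TGFB1, TGFBR1 and FST), where the share is 9.96%, and TGANTCA in 1 (FST), where it is 6.57%. TGFBR1 alone has 8 of the 19 windows, some of which overlap, so the windows are not independent and nothing is read from these counts.

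TGFB2 was higher in depleted than in control cells, the opposite of INHBB. Control cells held 56.6 (A) and 40.9 (B) normalized reads at 0 h and 90.9 and 79.7 at 16 h. Depleted cells held 220 and 230 at 0 h and 167 and 147 at 16 h. The 4 groups did not overlap: the depleted libraries were higher than the control libraries at both times, by less at 16 h. At 0 h TGFB2 was higher in depleted than in control cells by 2.20 ± 0.18 (SE) on the log2 scale, a 4.61-fold difference. At 16 h the log2 fold change with depletion was 0.87 ± 0.18 and was not called. The log2 fold change with TNF-α was 0.81 in control cells, which became 1.04 and was called without the control 0 h library A, and -0.52 in depleted cells. The interaction was called at -1.33 ± 0.25, and stayed between -1.56 and -1.10 when single libraries were left out. The median depletion change of the genes around TGFB2 was 0.09 at both times.

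TGFB1 encodes the TGF-β isoform that dominates in most adult tissues, and was among the 3 most abundant members per kb in every group. It lies on chromosome 19 at 41836436 to 41859838 in hg19 (minus strand, Entrez Gene 7040). Control cells held 1451 (A) and 1415 (B) normalized reads at 0 h and 1990 and 1706 at 16 h, and depleted cells 1244 and 1164 at 0 h and 1277 and 1151 at 16 h. The depleted libraries were below the control libraries at both times, but by less than 2-fold: the log2 fold change with depletion was -0.25 ± 0.08 at 0 h and -0.60 ± 0.08 at 16 h. The genes around TGFB1 had medians of 0.33 and 0.40 in the same comparisons, and with the neighbouring genes' median removed the values of TGFB1 were -0.58 and -0.99, the second at the edge of the 2-fold threshold and uncalled. The log2 fold change with TNF-α was 0.36 in control cells and 0.01 in depleted cells, and the interaction of -0.35 was uncalled, except without the control 16 h library B (-0.46).

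BMP4 and BMP7 encode bone morphogenetic proteins, the first of them a product of the intestinal mesenchyme in the healthy gut. BMP4 lies on chromosome 14 at 54416455 to 54423554 in hg19 (minus strand, Entrez Gene 652). It held 2105 (A) and 1945 (B) normalized reads in untreated control cells and 2428 and 2364 at 16 h, and 1047 and 1012 in depleted cells at 0 h and 846 and 842 at 16 h. The lines parted further with TNF-α: the control libraries were higher at 16 h than at 0 h and the depleted libraries lower, with no overlap of the 4 groups. BMP4 fell by 1.50 ± 0.07 (SE) on the log2 scale with depletion at 16 h. At 0 h its log2 fold change of -0.97 ± 0.07 was at the edge of the 2-fold threshold. That value passed it under edgeR's quasi-likelihood and exact tests on the recovered reads (-1.01 in both), with the neighbouring genes' median removed (-1.10) and without the control 0 h library B (-1.03). The log2 fold change with TNF-α was 0.24 in control cells and -0.29 in depleted cells, and the interaction of -0.53 ± 0.10 was called; with the neighbouring genes' median removed it was -0.41 and was not called.

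BMP7, on chromosome 20 at 55743809 to 55841707 in hg19 (minus strand, Entrez Gene 655), held 3227 (A) and 2869 (B) normalized reads in untreated control cells and 2546 and 2131 at 16 h, and 2201 and 2091 in depleted cells at 0 h and 1708 and 1613 at 16 h. The values went down in the same steps in both lines, each under 2-fold: the log2 fold change was -0.50 with depletion at 0 h and -0.49 at 16 h, and -0.39 with TNF-α in control cells and -0.37 in depleted cells. No BMP7 value was called in any comparison or under any alternative, and the interaction value was 0.02 ± 0.12.

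**Figure D2:**
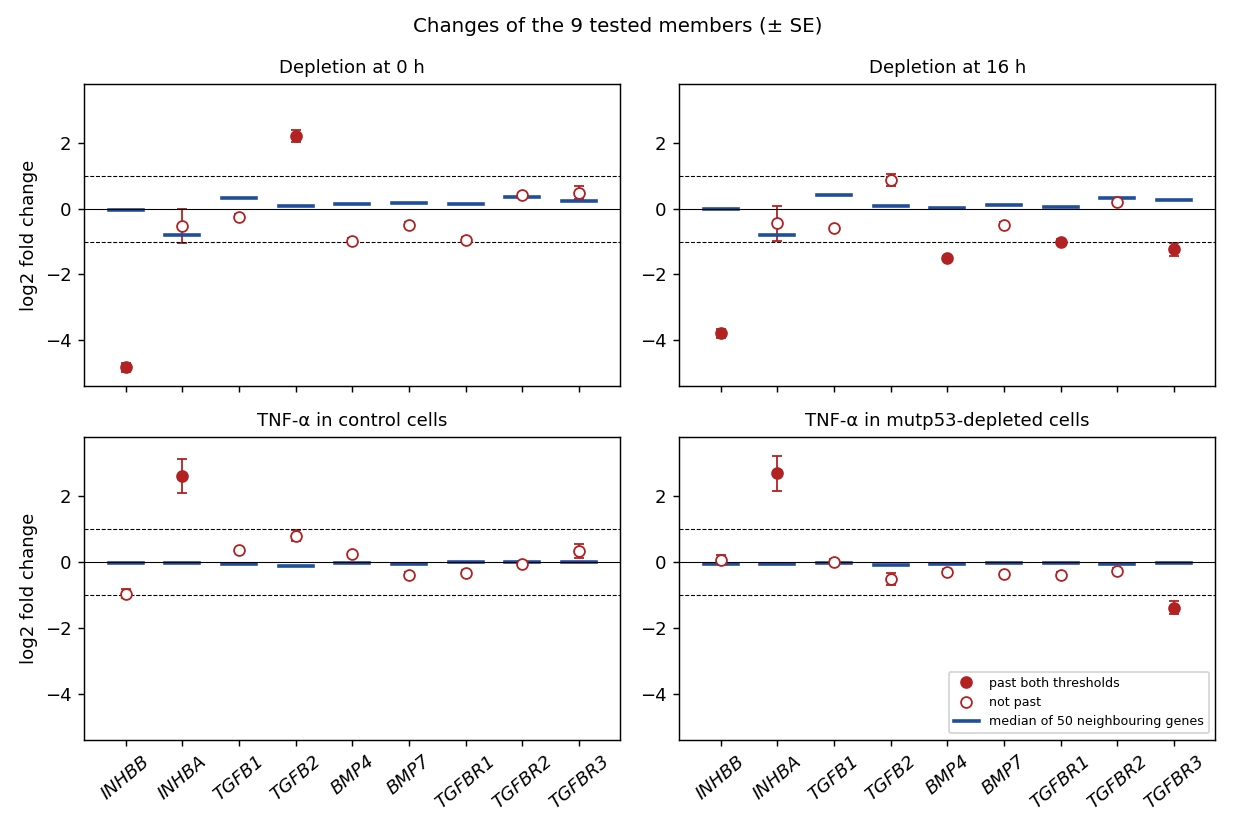
Log2 fold change (log2 of normalized reads + 1; vertical axis) of the 9 tested members with depletion at 0 h and 16 h and with TNF-α in each line; bars are SE, filled points passed both thresholds, dashed lines mark 2-fold, and blue lines are the median of the 50 neighbouring genes. INHBB stands at -4.83 and -3.79 in the depletion panels, TGFB2 at 2.20 at 0 h, and INHBA at 2.62 and 2.70 in the TNF-α panels.

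TGFBR1 encodes the type I receptor kinase of the TGF-βs and lies on chromosome 9 at 101867371 to 101916473 in hg19 (plus strand, Entrez Gene 7046). It held 1592 (A) and 1772 (B) normalized reads in untreated control cells and 1349 and 1334 at 16 h, and 931 and 809 in depleted cells at 0 h and 683 and 648 at 16 h. Depleted libraries were lower than control libraries, at each time, and 16 h libraries lower than 0 h libraries within each line, without overlap. TGFBR1 fell by 1.01 ± 0.08 (SE) on the log2 scale with depletion at 16 h, at the edge of the 2-fold threshold; without the depleted 16 h library B the value was -0.97 and was not called. At 0 h the log2 fold change was -0.95 ± 0.08, uncalled; it passed the threshold without the control 0 h library A (-1.03), without the depleted 0 h library A (-1.05) and with the neighbouring genes' median removed (-1.12). The values of the 2 times are thus nearly the same although only the second was called with all libraries, and the interaction was -0.06 ± 0.12. TNF-α gave log2 fold changes of -0.32 in control and -0.38 in depleted cells.

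TGFBR2, the type II receptor that binds TGF-β and activates TGFBR1, had the smallest ratio of highest to lowest value of the 3 receptors among the members. It lies on chromosome 3 at 30647994 to 30735633 in hg19 (plus strand, Entrez Gene 7048). Its values ran from 521 to 753 normalized reads over the 8 libraries: 573 (A) and 567 (B) in control cells at 0 h, 583 and 521 at 16 h, 753 in both depleted libraries at 0 h, and 639 and 616 at 16 h. Depleted libraries were higher than control libraries, and its log2 fold change was 0.40 ± 0.08 at 0 h and 0.19 ± 0.08 at 16 h, uncalled. The genes around TGFBR2 had medians of 0.34 and 0.33; with the neighbouring genes' median removed the values were 0.01 and -0.17, of the opposite sign at 16 h. TNF-α gave log2 fold changes of -0.05 in control and -0.26 in depleted cells, with an interaction of -0.21 ± 0.12.

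TGFBR3 encodes betaglycan, a co-receptor without kinase activity that presents TGF-β2 to TGFBR2 and also binds inhibins. It lies on chromosome 1 at 92145900 to 92351836 in hg19 (minus strand, Entrez Gene 7049). Control cells held 68.2 (A) and 78.8 (B) normalized reads at 0 h and 104 and 82.5 at 16 h, and depleted cells 104 and 101 at 0 h and 40.2 and 37 at 16 h. The depleted 16 h libraries were the lowest of the 8, while the depleted 0 h libraries lay at the level of the highest control library. TGFBR3 fell by 1.24 ± 0.20 (SE) on the log2 scale with depletion at 16 h and by 1.39 ± 0.20 with TNF-α in depleted cells. Its log2 fold change was 0.48 ± 0.20 with depletion at 0 h and 0.34 ± 0.20 with TNF-α in control cells, both uncalled. The interaction, -1.72 ± 0.28, was called and lay between -1.89 and -1.56 when single libraries were left out; it was the largest in size of the 9 tested members. The genes around TGFBR3 had medians of 0.22 at 0 h and 0.27 at 16 h with depletion.

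FST encodes follistatin, a secreted protein that binds activins and keeps them from their receptors. It lies on chromosome 5 at 52776264 to 52782304 in hg19 (plus strand, Entrez Gene 10468). FST had 1 read in 1 of the 8 libraries, control 16 h library B (1.42 normalized reads), and a value of 0 in the other 7. No fold change can be given at this depth, at which 3 reads correspond to between 2.01 and 4.54 normalized reads in a library.

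**Figure D3:**
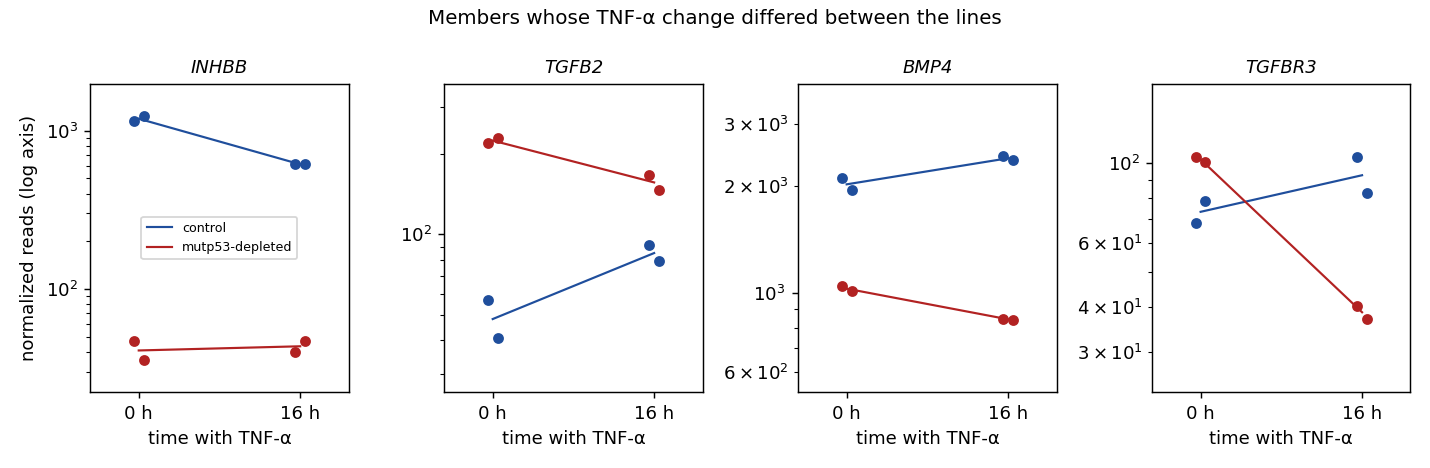
Normalized reads (log axis, a range of its own in each panel) at 0 h and after 16 h with TNF-α of the 4 members whose interaction was called; points are libraries and lines join the geometric means of the 2 libraries of a group. At 16 h INHBB is lower in control cells (614 and 612) and near its 0 h level in depleted cells, TGFB2 and BMP4 are higher in control cells and lower in depleted cells, and TGFBR3 is at 40.2 and 37 in depleted cells.

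Levels of different genes were compared per kb of exon length only. In control cells at 0 h the order was BMP4 (mean 1047 normalized reads per kb), BMP7 (758), TGFB1 (557), INHBB (372), TGFBR1 (259), TGFBR2 (121), TGFBR3 (11.2), TGFB2 (8.2), INHBA (1.18) and FST (0), and no neighbours in this order had overlapping libraries. In control cells at 16 h BMP4 was still first (1238), followed by TGFB1 (718) and BMP7 (581). TGFBR1 (206) then stood above INHBB (192). TGFB2 and TGFBR3, both at 14.3, overlapped and could not be ordered.

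In depleted cells at 0 h the first places were held by BMP7 (534 normalized reads per kb) and BMP4 (532), which overlapped, and then by TGFB1 (468). INHBB, at 12.9, had dropped towards the end of the order, below TGFB2 (37.9) and TGFBR3 (15.7). TGFBR2 (160) stood above TGFBR1 (134), the reverse of their order in control cells. In depleted cells at 16 h TGFB1 came first (472), before BMP4 (436) and BMP7 (413), and INHBB (13.6), INHBA (6.61) and TGFBR3 (5.9) followed TGFB2 (26.4), each without overlap. INHBA, far below INHBB in control cells at 0 h, thus stood next to it in that group.

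The genes whose pattern over the 8 libraries was most like that of INHBB were sought among 5300 tested genes whose mean was 10 normalized reads or more and whose values spanned at least 2-fold. Among the 5 nearest were SAPCD2, OPN3, EPHB6 and SERINC2, with a Pearson r from 0.9967 (SERINC2) to 0.9975 (SAPCD2) on the log2 scale. These 4 were higher in control cells than in depleted cells, as their selection for likeness to INHBB implies, so their values are a description and no p is given. With the neighbouring genes' median removed, the depletion values of SAPCD2 went from -1.41 to -0.61 at 0 h and from -1.09 to -0.35 at 16 h, and that of SERINC2 at 16 h from -1.17 to -0.98, all 3 then short of 2-fold. EPHB6, a receptor of the ephrin family without kinase activity, held 3285 (A) and 2997 (B) normalized reads in untreated control cells and 245 and 230 in depleted cells, and had the largest depletion value of the 4 at 0 h, a log2 fold change of -3.72 ± 0.10 (SE).

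The rest of the pathway was described from lists of 94 other genes, sorted by role, of which 66 were tested and the others were too low. With depletion at 0 h, 18 of the 66 (27.3%, against 15.4% of all tested genes) were called, 5 higher and 13 lower, with a median log2 fold change of -0.06 against 0.03 for all tested genes. At 16 h it was 15 (22.7%, against 15.2%), 5 higher and 10 lower, with a median of -0.00 against -0.01. With TNF-α 15 (22.7%, against 7.24%) were called in control cells, 5 higher and 10 lower, with a median of -0.07 against -0.05, and 12 (18.2%, against 6.36%) in depleted cells, 3 higher and 9 lower, with a median of -0.10 against -0.06. The interaction was called for 3 (4.55%, against 2.86%), 1 positive and 2 negative, with a median of -0.04 against -0.03. The lists were drawn up with earlier results of these data known, and their shares are not a test.

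**Figure D4:**
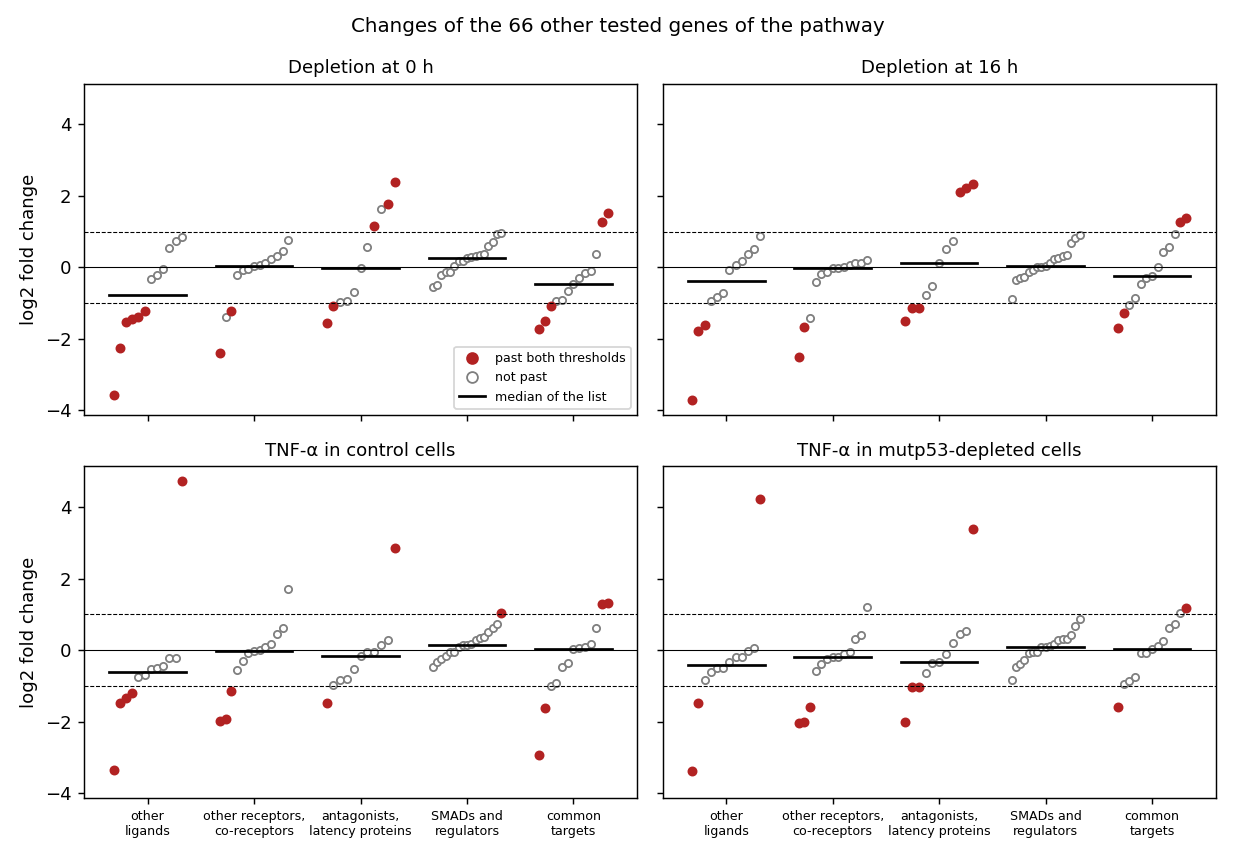
Log2 fold change (log2 of normalized reads + 1; vertical axis) of the 66 other tested genes of the pathway, by list, in the 4 comparisons; each point is a gene, red points passed both thresholds, and black lines are list medians. The SMADs and their regulators lie within 2-fold in both depletion panels, while 6 of 12 other ligands are red and lower at 0 h.

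Among the other ligands, 12 of 27 were tested. With depletion at 0 h 6 of the 12 were called as lower and none as higher, where 9.55% of all tested genes were lower and 5.89% higher. At 16 h 3 of the 12 were called, GDF15, BMP8B and INHA, each as lower, where 10.2% of all tested genes were lower. GDF15, a stress-induced ligand that acts through a receptor in the brain stem, had the largest change. It held 388 (A) and 362 (B) normalized reads in control cells and 36.2 and 26.1 in depleted cells at 0 h, and fell by 3.57 on the log2 scale (SE 0.22; limma, adjusted p = 3.7e-10). At 16 h its values were 171 and 128 in control cells and 10.9 and 9.87 in depleted cells, and it fell by 3.71 with depletion. TNF-α lowered it in both lines, by 1.33 in control cells and by 1.48 in depleted cells, and the interaction was -0.14.

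BMP8B fell by 2.27 with depletion at 0 h (limma, adjusted p = 5.2e-06) and by 1.62 at 16 h, BMP8A by 1.54 at 0 h and BMP6 by 1.45 at 0 h. BMP8A and BMP8B are near-identical neighbouring genes between which reads may have been divided, so their separate values are uncertain. INHA, which encodes the α subunit that makes inhibins with the subunits of INHBA and INHBB, held 46.5 (A) and 37.9 (B) normalized reads in untreated control cells and 19.4 and 12.3 in depleted cells. INHA fell by 1.38 at 0 h (adjusted p = 0.002) and by 1.79 at 16 h (adjusted p = 0.00021, limma). The sixth ligand called at 0 h, AMH, is named here because it completes the count, after its value was seen (-1.21).

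With TNF-α, 1 of the 12 ligands was called as higher and 4 as lower in control cells, where 2.97% of all tested genes were higher and 4.27% lower, and 1 as higher and 2 as lower in depleted cells, where the shares were 1.86% and 4.5%. BMP2, another BMP, was the ligand that rose. It held 2.18 (A) and 0 (B) normalized reads in untreated control cells and 67.7 and 31.3 at 16 h, and 3.35 and 1.37 in depleted cells at 0 h and 52 and 67.9 at 16 h. Every 16 h library was above every 0 h library. The reads of the control cells, 92 against 3, give a ratio of 36 with an exact 95% interval of 11.9 to 178, which covers counting error only; the fitted log2 fold change was 4.72, or 5.56 without the control 0 h library A and 3.89 without B. In depleted cells BMP2 rose by 4.23 on the log2 scale (limma, adjusted p = 1.4e-05). INHBE, which encodes a further activin subunit, went the other way, from 20.3 and 22.7 to 3.87 and 0 normalized reads in control cells and from 44.9 and 21.9 to 3.35 and 1.23 in depleted cells. It fell by 3.35 in control cells (limma, adjusted p = 0.0007) and by 3.38 in depleted cells (adjusted p = 0.00068). These values rest on 4 reads at 16 h against 43 at 0 h in control cells and on 5 against 83 in depleted cells, and the value in control cells was -4.49 without the 16 h library A and -2.21 without the 16 h library B, called in both. BMP8B in control cells fell by 1.49 with TNF-α, but by less than 2-fold (-0.97) without the 16 h library B, and the call of BMP8A (-1.19) was lost without the control 0 h library B (-0.99) or 16 h library A (-1.22) or B (-1.16), under DESeq2 and with no filter.

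Among the other receptors and co-receptors, 13 of 16 were tested, and the genes called were BAMBI, TDGF1 and RGMA, each lower. BAMBI and TDGF1 were called with depletion, 15.4% of the 13 at each time, which is the share over all tested genes at 0 h (15.4%) and near that at 16 h (15.2%). All 3 were called with TNF-α in each line, 23.1% of the 13, against 7.24% of all tested genes in control cells and 6.36% in depleted cells. Of the receptor kinases, ACVR1B, the type I receptor of activins, had values between 1024 and 1533 normalized reads, ACVR2A between 95.4 and 136, and ACVR2B, like ACVR2A a type II activin receptor, between 225 and 298. BMPR2, the type II receptor of BMPs, ranged from 938 to 1495. With TNF-α in control and depleted cells, ACVR1B had log2 fold changes of -0.56 and -0.40, and BMPR2 of -0.31 and -0.57. Each was under 2-fold and uncalled (limma, largest adjusted p = 0.01). Those of ACVR2A (0.09 and -0.12) and ACVR2B (-0.01 and -0.20) were smaller. BAMBI, a receptor-like protein without a kinase that dampens TGF-β and BMP signals, held 2577 (A) and 2369 (B) normalized reads in untreated control cells, 1159 and 1080 at 16 h, 1141 and 982 in depleted cells at 0 h and 390 and 322 at 16 h. It was therefore lowered by depletion and by TNF-α, in each case without overlap: it fell by 1.22 with depletion at 0 h, by 1.66 at 16 h, by 1.14 with TNF-α in control cells and by 1.58 with TNF-α in depleted cells (limma, largest adjusted p = 3.8e-08). These calls were kept under every alternative.

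TDGF1, a co-receptor of NODAL, was low, at 23.2 (A) and 34.8 (B) normalized reads in untreated control cells and 7.37 and 2.74 in depleted cells. It fell by 2.40 with depletion at 0 h (limma, adjusted p = 0.0034), a call lost with a pseudocount of 0.1 and without the control 0 h library B (-2.11) or the depleted 0 h library B (-1.82). At 16 h it had 1 read in depleted cells and 12 in control cells, a ratio of 13.8 with an interval of 2.05 to 591; that call was lost without the control 16 h library B (-1.84), and the fitted value of -2.52 was -3.19 without A. It was also called as lower with TNF-α in both lines, but lost both calls under DESeq2 (adjusted p = 0.069 in control cells and 0.12 in depleted cells). The call in control cells was also lost with a pseudocount of 0.1 and without the control 0 h library A (-2.21) or B (-1.64) or the 16 h library A (-1.25), with a value of -2.60 without the 16 h library B. That in depleted cells was lost with a pseudocount of 5, in the fit on 4 libraries and without the depleted 0 h library A (-1.46) or 16 h library B (-1.60), with a value of -2.63 without the depleted 0 h library B. TDGF1 has processed copies elsewhere in the genome, and its reads are uncertain for that reason. RGMA, a co-receptor of BMPs, fell by 1.98 with TNF-α in control cells (adjusted p = 0.047) and, at 1 read against 12, by a ratio of 10.8 in depleted cells with an interval of 1.6 to 463. The RGMA call in control cells was lost under DESeq2, with a pseudocount of 0.1, with no filter, in the fit on 4 libraries and without the control 0 h library A (-1.87) or B (-2.09), the control 16 h library A (-0.96) or either depleted 0 h library (-1.98), and its value was -3.00 without the control 16 h library B; the call in depleted cells was lost with a pseudocount of 5, with no filter and without either control 0 h library (-2.00), the depleted 0 h library A (-1.77) or B (-2.24) or the depleted 16 h library A (-1.43).

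Of the extracellular antagonists and latency proteins, 11 of 19 were tested, and genes were called in both directions: 3 were higher and 2 lower with depletion at 0 h, where 5.89% of all tested genes were higher and 9.55% lower, and 3 higher and 3 lower at 16 h, where the shares were 5.03% and 10.2%. NOG, which encodes noggin, an antagonist of BMPs, was higher in every depleted library, at 24.7 to 34.3 normalized reads, than in every control library, at 4.27 to 6.06, and rose by 2.40 at 0 h (SE 0.40; limma, adjusted p = 6.4e-05) and by 2.11 at 16 h (adjusted p = 0.00024). The genes around NOG had a median change of 0.58 at both times. LTBP1, which anchors latent TGF-β in the matrix, rose by 1.78 at 0 h (limma, adjusted p = 0.00027) and by 2.23 at 16 h. LTBP4 and LTBP3, members of the same family, went down: LTBP4 fell by 1.09 at 0 h and by 1.14 at 16 h. LTBP3 fell by 1.15 at 16 h, and its log2 fold change at 0 h was -0.97, uncalled. That value passed 2-fold without the control 0 h library A or the depleted 0 h library A. The 0 h call of LTBP4 was lost without the depleted 0 h library B (-0.96).

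FSTL3, a follistatin-like protein that binds activins, was abundant where FST was not, at 372 (A) and 406 (B) normalized reads in untreated control cells and 449 and 407 at 16 h, against 119 and 145 and 147 and 156 in depleted cells. With depletion it fell by 1.55 at 0 h (limma, adjusted p = 8.4e-09) and by 1.49 at 16 h (adjusted p = 1.3e-08). CHRD, which encodes the BMP antagonist chordin, was called as higher with depletion at 0 h (1.16, adjusted p = 0.044), but lost that call under DESeq2, with the neighbouring genes' median removed (0.50) and without the control 0 h library A (0.85) or B (1.48) or the depleted 0 h library A (1.25) or B (1.08). GREM1, a further BMP antagonist, had 12 reads in depleted and 1 in control cells at 16 h, a ratio of 10.4 with an interval of 1.54 to 445, and its call was lost under DESeq2 and without the control 16 h library B (1.83) or the depleted 16 h library A (2.35) or B (2.29).

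With TNF-α, LRRC32, which encodes a surface protein that binds latent TGF-β, was the gene of this list that rose: its reads went from 2 to 27 in control cells, a ratio of 15.8 with an interval of 3.98 to 137, and from 1 to 31 in depleted cells, a ratio of 34.4 with an interval of 5.73 to 1401. The call in control cells, a fitted log2 fold change of 2.85, was lost without the control 0 h library B (2.20) and without the control 16 h library A (1.75), and the value was 3.50 without the control 0 h library A and 3.95 without the control 16 h library B. In depleted cells the fitted value of 3.39 was 2.76 without the depleted 0 h library A and 4.01 without B. CHRD fell by 2.01 in depleted cells (limma, adjusted p = 0.0034), where its values went from 34.2 and 38.4 to 10.9 and 6.17 normalized reads. LTBP1 fell by 1.48 in control cells (adjusted p = 0.0033), but was uncalled under DESeq2 and without the control 0 h library B (-1.06). In depleted cells the calls of LTBP1 (-1.03) and LTBP3 (-1.02) stood at the edge of the 2-fold threshold and were lost under edgeR, DESeq2 and the rescaling of the libraries (-0.96 and -0.95). Leaving out any depleted library also ended the LTBP1 call (-1.08 to -0.98), and leaving out the depleted 0 h library A (-0.92) or 16 h library B (-0.90) that of LTBP3.

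SMADs and their regulators, with 17 of 18 tested, were the list with the fewest genes called in any comparison, 1. In the interaction that gene made 5.88% of the 17, against 2.86% of all tested genes. By limma 0 of the 17 were called with depletion at 0 h and 0 at 16 h, with 10 and 9 at an unadjusted p under 0.05, and 0 with TNF-α in depleted cells, with 9 at that p; edgeR's quasi-likelihood and exact tests and DESeq2 also called 0 in these comparisons. Over all tested genes limma called 15.4%, 15.2% and 6.36% in them. For several of the 17 genes the adjusted p was under 0.05 and only the 2-fold threshold was missed. With depletion at 0 h, NEDD4L had a log2 fold change of 0.72 (limma, adjusted p = 1.8e-07) and PMEPA1 of -0.54 (adjusted p = 2.2e-05). NEDD4L had 0.67 at 16 h (adjusted p = 4.4e-07), and PMEPA1 had 0.86 with TNF-α in depleted cells (adjusted p = 2.9e-07). The 0 calls therefore do not mean that the list was unchanged. SMAD3, a transducer of TGF-β and activin signals, was the exception in control cells with TNF-α. It held 568 (A) and 641 (B) normalized reads in untreated control cells and 1359 and 1157 at 16 h, against 921 and 897 and 1248 and 1164 in depleted cells. It rose by 1.05 in control cells (limma, adjusted p = 3.8e-08), but was uncalled without the control 0 h library A (0.97) and without the control 16 h library A (0.94). In depleted cells its log2 fold change was 0.41, and the interaction of -0.65 was called (adjusted p = 0.0056). SMAD2 held between 367 and 474 normalized reads, whereas SMAD4, the partner shared by all of these SMADs, held between 3.7 and 9.09, or at most 1.04 per kb against at least 91.2 for SMAD3.

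Of 14 genes commonly used as targets of the pathway, 13 were tested. With depletion at 0 h, 5 of the 13 were called: CDKN2B and COL1A1 were higher and TAGLN, ID3 and ID1 lower, where 5.89% of all tested genes were higher and 9.55% lower. CDKN2B, a cell cycle inhibitor, rose by 1.27 (limma, adjusted p = 2.1e-06), from 86.4 (A) and 87.9 (B) to 208 and 214 normalized reads. COL1A1, a collagen chain, rose by 1.51 (adjusted p = 3.1e-05), or by 0.92 and uncalled with the neighbouring genes' median removed. The genes ID1 and ID3 encode inhibitors of differentiation that respond to BMPs. ID3 fell by 1.51 at 0 h, a call lost under DESeq2 and without the control 0 h library A (-1.43) or B (-1.60) or the depleted 0 h library A (-1.10), and by 1.70 at 16 h, lost under DESeq2 and without the depleted 16 h library A (-1.32). ID1 fell by 1.08 at 0 h, and its log2 fold change at 16 h was 0.02. The 0 h call of ID1 was lost without the control 0 h library B (-0.69) or the depleted 0 h library A (-0.95). It was also lost with the neighbouring genes' median removed (-0.82). The related gene ID2 had uncalled depletion values of 0.37 at 0 h and 0.43 at 16 h. TAGLN, a protein of the actin cytoskeleton, fell by 1.72, a call lost without the control 0 h library A (-1.21) or the depleted 0 h library B (-1.26).

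CTGF, a secreted protein and a classic target of TGF-β, held 141 (A) and 161 (B) normalized reads in untreated control cells and 30.9 and 11.4 at 16 h, and 79.1 and 79.5 in depleted cells at 0 h and 41.9 and 53.1 at 16 h. With TNF-α in control cells it fell by 2.93 (limma, adjusted p = 1.1e-06; -3.61 without the control 16 h library A and -2.24 without B), and its log2 fold change in depleted cells was -0.74. The interaction of 2.19 (adjusted p = 0.0091) was called, though not without the control 0 h library B (2.10) or the depleted 0 h library B (2.20), and was 2.87 without the control 16 h library A and 1.51 without B. At 16 h CTGF was higher in depleted cells by 1.28, by 1.96 without the control 16 h library A, and by 0.59 and uncalled without the control 16 h library B.

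TNF-α changed 2 further targets in both lines, the 2 of the 13 called in depleted cells, where 1.86% of all tested genes were higher and 4.5% lower. JUNB, a subunit of AP-1, rose by 1.32 in control cells (limma, adjusted p = 1.1e-09) and by 1.18 in depleted cells, from values between 359 and 420 at 0 h to values between 804 and 1073 at 16 h. ID2 fell by 1.63 in control cells (adjusted p = 3.3e-10) and by 1.58 in depleted cells. Neither had a called interaction (-0.14 for JUNB and 0.05 for ID2). SNAI2, a repressor of epithelial genes, was called as higher with depletion at 16 h (1.39, adjusted p = 0.0067), a call that was lost under DESeq2 and without the depleted 16 h library B (1.21). In the interaction 0 of 12 other ligands, 0 of 13 receptors and 0 of 11 antagonists were called by limma. Over all tested genes the share was 2.86%. The quasi-likelihood test of edgeR and DESeq2 also called 0, and at an unadjusted p under 0.05 there were 1, 2 and 0. The interaction of BAMBI (-0.43), of the receptor list, was called with a replicate block and without the depleted 16 h library A.

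Markers of cell types were examined because the members include secreted factors that other cells of the gut also make. Of 10 colon epithelial markers 9 had reads, and their sums were 63315 (A) and 59067 (B) normalized reads in untreated control cells, 47856 and 47917 at 16 h, 43835 and 43744 in depleted cells at 0 h and 32772 and 33676 at 16 h. The most abundant was KRT8 (mean 21331), followed by KRT18 (mean 20101), and CDX1 was at 0. The sum, most of which is KRT8 and KRT18, was lower in depleted than in control cells at each time, and its part in the values of the members was not tested. Of the 6 tested epithelial markers, 5 had negative depletion values at both times. EPCAM, a surface adhesion protein, was called as lower at 0 h (-1.29) and at 16 h (-1.06, or -0.94 and uncalled without the control 16 h library A), and CDH1, which encodes E-cadherin, had uncalled values of -0.81 and -0.45. The sixth, CDX2, had uncalled depletion values of 0.12 at 0 h and 0.21 at 16 h, and KRT20, which had at most 8.64 normalized reads and was not tested, had its highest values in depleted cells at 16 h. In bulk RNA, fewer cells of a type and less RNA per cell cannot be told apart. VIL1, which encodes the brush border protein villin, had the largest depletion change of these markers and fell by 5.49 at 0 h (limma, adjusted p = 6.2e-08), from 545 and 480 to 8.71 and 12.3 normalized reads. The sum was also lower at 16 h than at 0 h in both lines. With TNF-α CDH1 fell by 2.51 in control cells (limma, adjusted p = 1.1e-10) and by 2.15 in depleted cells. CDX2 fell by 1.07 in control cells and had an uncalled value of -0.98 in depleted cells. That value passed 2-fold without the depleted 0 h library A (-1.01) or 16 h library B (-1.06). VIL1 was called with TNF-α in both lines (-2.10 and -2.21), but not without the control 0 h library A (-2.01) or 16 h library B (-2.03) or with a pseudocount of 0.1 in the first, and not without the depleted 16 h library B (-0.92), in the fit on 4 libraries, under edgeR's quasi-likelihood test or under DESeq2 in the second.

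Markers of other cells were low beside the epithelial ones, and some of those that define a cell type were at 0, but others had values as high as those of the less abundant members. The sums of 8 fibroblast markers were between 29.4 and 115 normalized reads a library, with ACTA2 as the most abundant (mean 47.2) and with COL3A1 and DCN at 0. In group order they were 96.5 and 115, 48.3 and 59.8, 86.4 and 98.7, and 29.4 and 37. The sums of 7 leukocyte markers were 59.5 and 45.5 in control cells at 0 h, 81.2 and 66.9 at 16 h, 71 and 72.7 in depleted cells at 0 h and 113 and 111 at 16 h, with CD68 as the most abundant (mean 45.2) and PTPRC at 0. The sums of 4 endothelial markers were between 5.69 and 28.8, with VWF as the most abundant (mean 14.2) and KDR at 0. Of the fibroblast markers only ACTA2 and PDGFRB were tested, and at 0 h they were called in opposite directions, which the sums hide. ACTA2, an actin of smooth muscle, held 90.7 (A) and 109 (B) normalized reads in untreated control cells and 12.1 and 26.1 in depleted cells, and fell by 2.42 with depletion at 0 h (limma, adjusted p = 3.8e-06). It was also called at 16 h (-1.12), though not without the control 16 h library B (-0.95), and with TNF-α in control cells (-1.04), though not without either control 0 h library (-1.17 without A and -0.91 without B) or the 16 h library A (-0.87), nor with the libraries rescaled (-0.99). PDGFRB, a receptor of platelet-derived growth factor, rose by 3.53 with depletion at 0 h (adjusted p = 9.9e-07): it held 4.35 and 6.06 normalized reads in untreated control cells and 69.7 and 69.9 in depleted cells, then 7.55 and 8.64 in depleted cells at 16 h, and its interaction was -2.81 (limma, adjusted p = 0.0099), which was not called without the depleted 0 h library A (-2.82) or B (-2.81). CD68 rose by 1.09 with depletion at 0 h (adjusted p = 0.0012) and by 1.08 with TNF-α in control cells (adjusted p = 0.0031), but its value was 0.92 without the depleted 0 h library B in the first comparison and under 2-fold without the control 0 h library A in the second. ITGAM was at 0 in both control libraries at 0 h and at 22.2 and 11.4 at 16 h, and at 2.01 and 0 in depleted cells at 0 h and 27.7 and 25.9 at 16 h, and was called as higher with TNF-α in both lines (limma, adjusted p = 8.4e-05 and 0.00012). CD14 with TNF-α in control cells (-1.21) and LYZ with depletion at 0 h (1.63) were called by limma but not under DESeq2. The CD14 call was also lost without the control 0 h library A (-0.86), the control 16 h library A (-1.36) or B (-1.06) or either depleted 0 h library (-1.21), and the LYZ call without the control 0 h library A (1.61) or B (1.66) or the depleted 0 h library A (1.22) and with the neighbouring genes' median removed (0.95). VWF rose with depletion by 1.84 at 0 h and by 2.62 at 16 h, where the genes around it had medians of 0.93 and 0.89; the call at 0 h was lost with the neighbouring genes' median removed (0.91) and without the depleted 0 h library A (1.65). The part of these markers in the values of the members was not tested.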

How the data were processed

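Strand-specific poly(A) RNA libraries of SW480 cells, 2 biological replicates in each of 4 groups, were sequenced by the authors, mapped with STAR and counted on RefSeq exons with HOMER (versions not given in the sources used here; the table's header names hg19, the study's methods hg38). The deposited signal values are reads per gene scaled by the authors to 1 total per library; whole reads were recovered for 100% of values within 0.1 read. Columns with the authors' own fold changes and p-values for 4 comparisons were not used.

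Values were fitted as log2(value + 1) with limma 3.58.1 (R 4.3.3) as 4 group means over the 14800 genes whose mean was 2.5 or more; p-values were adjusted by Benjamini-Hochberg over all of them. The method was also run on simulated data, and the outcome is not given here. Members and gene lists were chosen with earlier results of these data known. Named genes are the 10 members, of each list and comparison at most 4 called genes per direction with the largest change, the markers and the 5 genes most like INHBB; some of these genes are not reported here. Alternatives were another scaling, filter or pseudocount, a replicate block, edgeR 4.0.16 and DESeq2 1.42.0 on the recovered reads, neighbouring genes removed, fits on 4 libraries, and each library left out. Tables and figures used Python 3.11.15, pandas 2.3.3, scipy 1.17.1 and matplotlib 3.10.9. Promoter sequences are from RefSeq (GRCh38.p14).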

Additional observations from a re-analysis of the deposited data

Results flagged for a closer look

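For 4 members of the list the TNF-α values of control and mutp53-depleted cells lay apart. The TNF-α change in depleted cells less that in control cells was 1.04 on the log2 scale for INHBB, -1.33 for TGFB2, -0.53 for BMP4 and -1.72 for TGFBR3. The members were selected on these libraries, so their values are a description and not a test. Among the pathway and marker genes named beside them, the same difference was -0.65 for SMAD3, 2.19 for CTGF and -2.81 for PDGFRB, of which the last 2 are not called when certain single libraries are left out. No explanation of these differences was tested.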

How the results depend on the processing

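Of 13 called values of the 9 tested members, 10 kept their call under every alternative that gave a value and 3 lost it under at least 1 (the interactions of INHBB and BMP4, and TGFBR1 with depletion at 16 h). Of 32 uncalled values, 5 were called under at least 1, and 0 called values changed sign. Of 59 called values of 28 other named pathway genes, 35 kept their call under every alternative and 24 did not. The number of members called with depletion at 0 h was 2, and 4 with the neighbouring genes' median removed. With a mean of at least 10, where INHBA is no longer tested, it was 0 with TNF-α in control cells and 1 in depleted cells. Leaving out each library in turn gave 1 to 3 members with TNF-α in control cells (3 without the control 0 h library A), and 208 to 421 genes for the interaction over all tested genes, against 424 with all libraries (208 without the depleted 0 h library B); with 1 library left in a group, that library is assumed to vary like the others. The causes were not tested. The difference between libraries A and B was nearly uncorrelated between groups (-0.02 to 0.07 across genes), so no strong effect shared by a letter was seen. Whether libraries of the same letter were paired is not known. With a replicate block 2298, 2271, 1096, 955 and 559 genes were called, against 2285, 2255, 1072, 941 and 424 without it. On the recovered reads edgeR's quasi-likelihood test called 2336, 2249, 1076, 939 and 456 genes and DESeq2 1955, 1918, 805, 681 and 293. The exact test and the fits on 4 libraries give no interaction.

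Depth limits INHBA (72 reads in all libraries) and FST (1 read), and groups of 2 libraries limit the spread that can be estimated. Reads report RNA, not secreted or processed ligand.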
